A study of Arabidopsis thaliana with 6 samples.

Results

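The genes described here encode the enzymes and regulators that make chlorophyll and heme and that break chlorophyll down in Arabidopsis thaliana. The set holds 39 of the 21693 genes in the deposited table and was given as a list of loci of the known pathway. RNA-seq was done on shoots of 8-day-old seedlings, 3 libraries from the wild type (WT) and 3 from the phod1 mutant. Both genotypes grew on Murashige and Skoog agar medium with 1.0% sucrose and 1.1% agar at 23 °C in days of 16 h light and 8 h dark. The only difference that the labels give between the groups is the genotype, and they do not say which gene phod1 affects, how many lines it stands for or whether plants were pooled. The title of the study concerns SHORT-ROOT, PHOSPHATE1 and phosphate allocation, and the comparison asks how the mutant shoot differs from the WT shoot.

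Chlorophyll and heme are tetrapyrroles and share their early steps in the plastid. Glutamyl-tRNA is reduced and converted to 5-aminolevulinic acid (ALA), whose supply limits the whole pathway, and ALA is built up to protoporphyrin IX. There the path divides, with magnesium chelatase leading to chlorophyll and ferrochelatase to heme and to the phytochrome chromophore. Free intermediates of the pathway are phototoxic, so in leaves supply is held close to demand at the first enzyme and at magnesium chelatase. Breakdown removes the magnesium and the phytol tail and opens the ring to colourless products.

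Levels are given as CPM, estimated counts divided by library sizes that were scaled by the trimmed mean of M values (TMM). The libraries held 33183463 to 54720319 estimated counts, in which 1 sequenced fragment was worth about 4 units, so 3 fragments in a library came to 0.256 to 0.404 CPM. That floor and the spread below cover counting and replicate error only, and since nothing in the labels says that replicates came from separate cultures, p-values measure the spread between these libraries, which may be technical. Shoot markers were present, and 6 of the 7 root markers in the table were at or below 1.07 CPM in every library, with EXPA7 at 0 in all of them. The remaining root marker, PYK10, stood at 219.6 ± 14.5 CPM in the WT and 245 ± 27.6 CPM in phod1 (SD, n = 3 each; adjusted p = 0.331), and it made up nearly all of the summed root level of 210.1 to 237 CPM in the WT and 230.5 to 278 CPM in phod1. The 4 shoot markers in the table summed to 65021 to 82291 CPM in the WT and to 38611 to 44461 CPM in phod1, of which most was CAB1, a light-harvesting gene. The leaf gene AS1 was at 107 ± 19.8 and 109 ± 3.71 CPM, and the meristem gene STM was at 2.57 ± 0.176 CPM in the WT and 7.36 ± 1.28 CPM in phod1 (log2 fold change 1.52, SE 0.181, adjusted p = 0.00290). The part of these marker differences in the results below was not tested, and in whole shoots fewer cells of a type and less RNA per cell cannot be told apart.

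Of the 23 genes that lead from glutamyl-tRNA to chlorophyll, 13 were called lower in phod1 shoots, none higher and 10 were not called, with the gene of the first enzyme, HEMA1, at 4.51-fold lower and the protochlorophyllide reductase gene PORA at 15.4-fold lower. Of the 39 genes, 19 fell, 2 rose and 18 did not pass. All 39 were above 0 in every library and all passed the filter on low counts. A gene was called where edgeR's quasi-likelihood test gave a Benjamini-Hochberg adjusted p under 0.05 over the 10803 genes tested, which 27.7% of those genes did. In the shoot as a whole 13.0% of genes tested fell and 14.6% rose, against 48.7% and 5.13% of this set. Falls of at least 2-fold were called for 5 of the 39 genes and a rise of that size for 1, while 4.59% and 6.93% of all genes tested passed with such falls and rises. The median log2 fold change of the set was -0.49, and 32 of 39 values were negative, while the median over all genes tested was 0.014. For 31 of the 39 the CPM of the genotypes did not overlap, compared with 47.6% of all genes tested. The 39 genes together summed to 24164 ± 1833 CPM in the WT and to 13266 ± 976 CPM in phod1, with the 3 phod1 libraries (12323 to 14271) below all WT libraries (22262 to 25920).

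**Figure D1:**
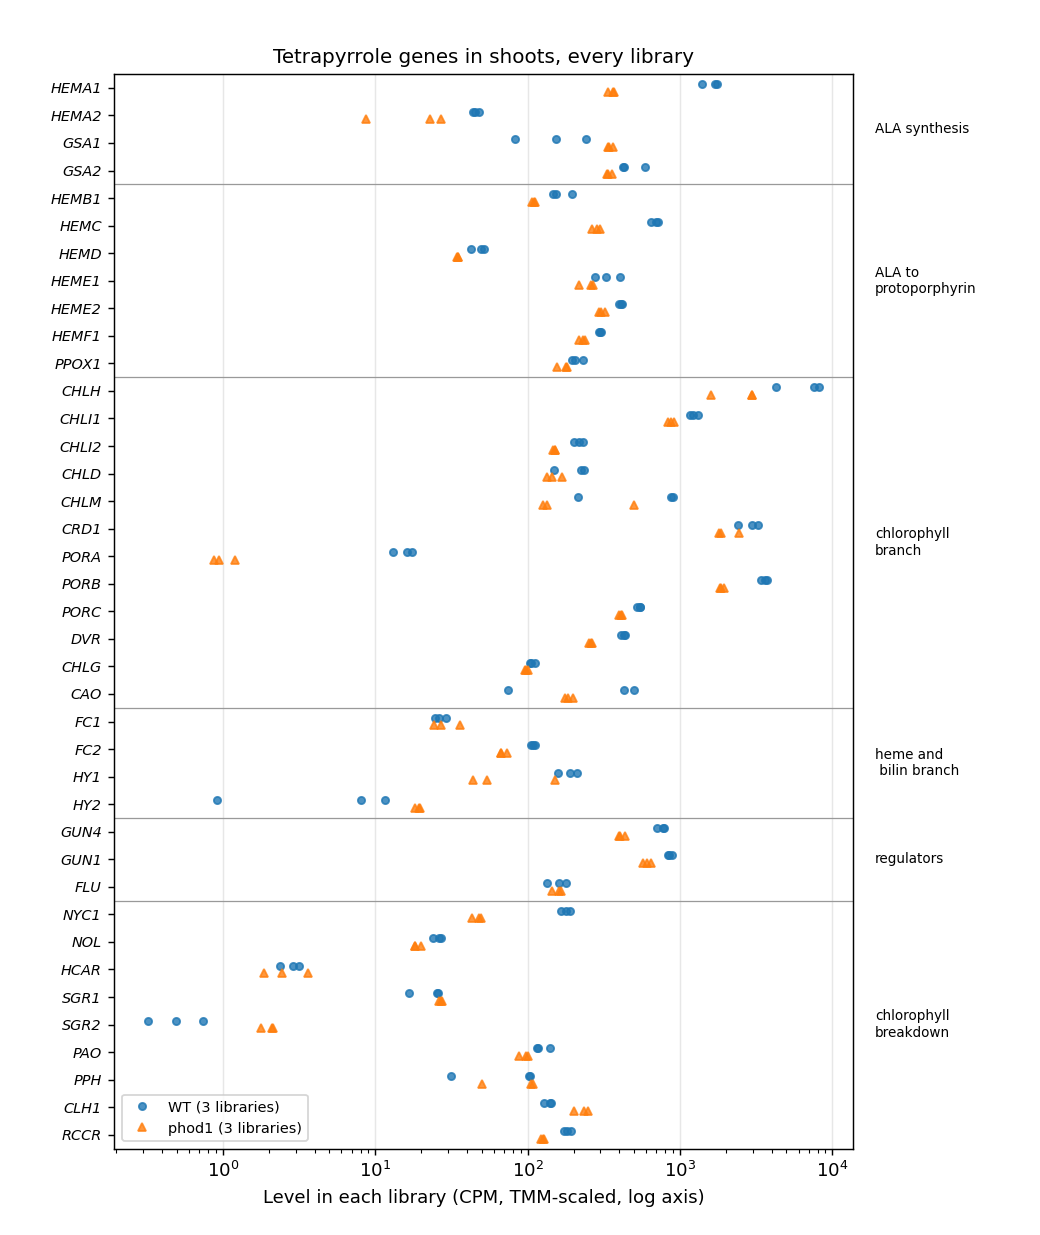
Level of each of the 39 genes in every library, in TMM-scaled CPM on a log axis, with WT as circles and phod1 as triangles and the genes in the order of the pathway. The groups do not overlap for 31 genes, and the widest gap is that of PORA, at 13.2 to 17.3 CPM in the WT and 0.876 to 1.20 CPM in phod1.

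How libraries are scaled moved these counts. TMM factors lay at 0.857 to 0.907 for WT libraries and 1.10 to 1.17 for phod1 libraries, and with library totals alone the median log2 fold change of all genes was 0.392 in place of 0.014. On that scale 32.8% of all genes tested rose and 5.72% fell, while 8 of the 39 genes fell and 4 rose. The 8 that fell were HEMA1, HEMC, PORA, PORB, DVR, FC2, GUN4 and NYC1, and the 4 that rose were CLH1, SGR2, GSA1 and FLU. The other 11 falls were not called on library totals, with values that were all still negative. CHLH was at -1.04 there (adjusted p = 0.0615), and the other 10 ranged from -0.22 (HEMB1) to -0.0073 (HEMF1). PORC shows the effect, since it stood at 449 to 493 CPM of library totals in WT and at 457 to 472 in phod1, yet fell once scaled. As a share of all units the 39 genes together took 1.90% to 2.22% in WT and 1.42% to 1.57% in phod1, so their sum was lower on both scales. The sum is weighted to abundant genes such as CHLH, which had means of 5855 CPM of library totals in WT and 2861 in phod1. It does not describe each gene, as PORC shows.

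**Figure D2:**
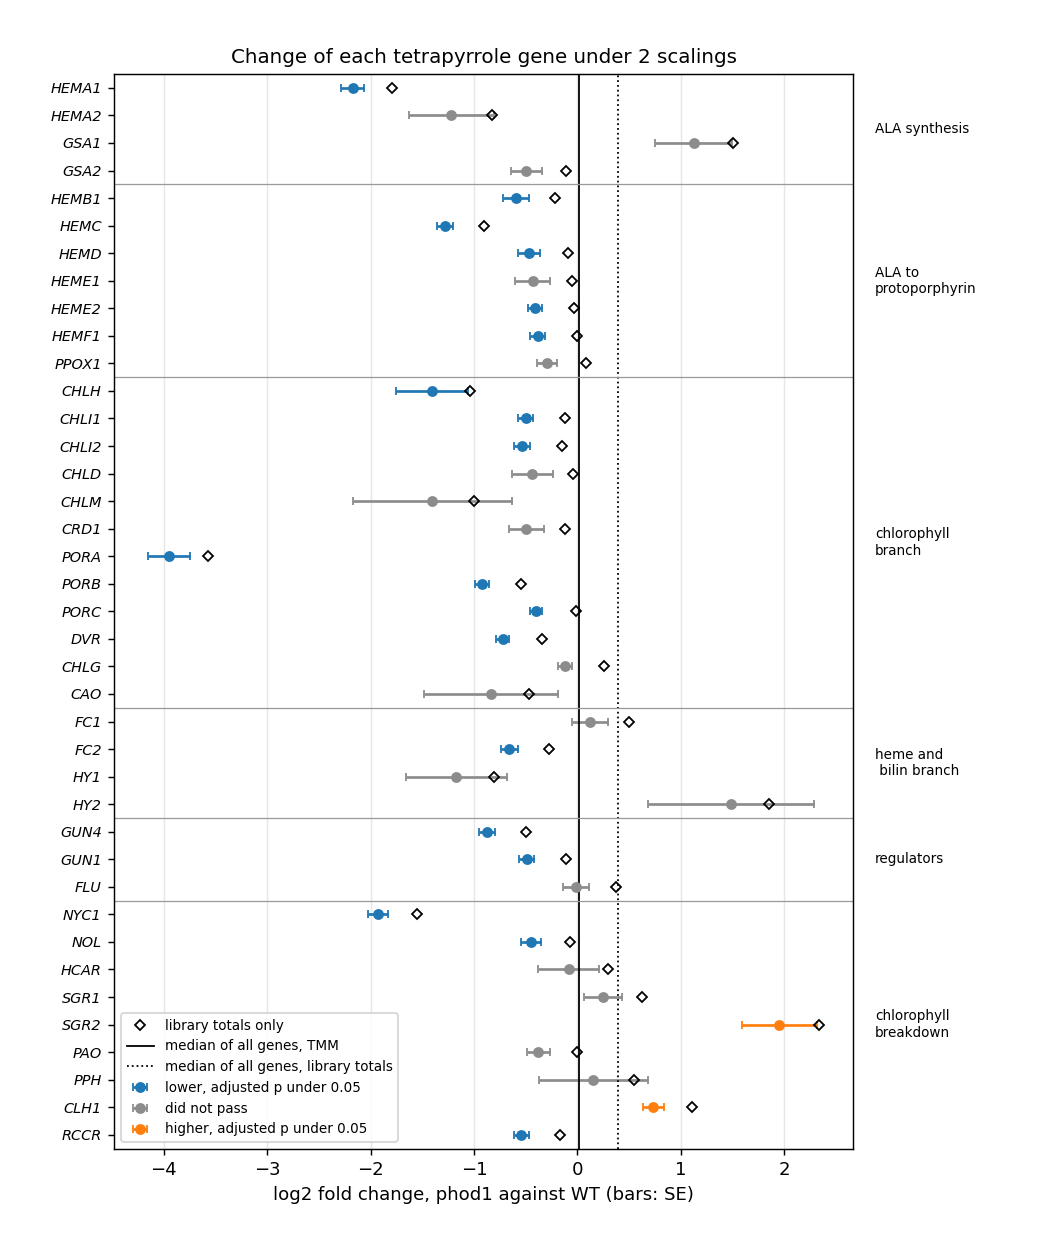
Log2 fold change of each gene in phod1 against WT with TMM scaling (filled circles, bars are the SE, coloured by call) and with library totals only (open diamonds). The solid and dotted lines mark the median of all genes tested on each scale, 0.014 and 0.392, and most synthesis genes lie to the left of both lines.

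The stretch of 250 bases before and 50 bases from the annotated transcript start was read for all 39 genes from the RefSeq reference TAIR10.1 and searched on both strands for 4 motifs. The motifs were the G-box CACGTG of light and stress factors, CCAATC of the GLK factors, the I-box GATAAG of light-regulated genes and GNATATNC, the site of the phosphate starvation factor PHR1. Sequences are printed for 4 of the genes that fell, those with the largest falls whose window holds a motif, with the motif in capitals. They are PORA (chr5:21992765-21993064, minus strand, I-box), NYC1 (chr4:7686957-7687256, minus strand, G-box), CHLH (chr5:4392380-4392679, minus strand, PHR1 site and then CCAATC) and PORB (chr4:13725296-13725595, plus strand, CCAATC at both places). HEMA1 and HEMC fell more than PORB, but their windows hold none of the 4 motifs and are not printed.
PORA: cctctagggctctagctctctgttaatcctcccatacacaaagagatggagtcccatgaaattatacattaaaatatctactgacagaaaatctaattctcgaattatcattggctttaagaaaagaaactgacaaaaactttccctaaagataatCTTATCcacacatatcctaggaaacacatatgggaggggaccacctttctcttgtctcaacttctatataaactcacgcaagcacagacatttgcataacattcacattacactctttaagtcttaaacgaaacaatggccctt
NYC1: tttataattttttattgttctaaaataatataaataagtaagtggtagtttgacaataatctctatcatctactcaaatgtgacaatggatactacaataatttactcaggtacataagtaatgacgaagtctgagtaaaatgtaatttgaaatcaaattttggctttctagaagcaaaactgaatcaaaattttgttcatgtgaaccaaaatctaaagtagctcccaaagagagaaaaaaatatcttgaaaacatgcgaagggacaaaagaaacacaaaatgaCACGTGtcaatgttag
CHLH: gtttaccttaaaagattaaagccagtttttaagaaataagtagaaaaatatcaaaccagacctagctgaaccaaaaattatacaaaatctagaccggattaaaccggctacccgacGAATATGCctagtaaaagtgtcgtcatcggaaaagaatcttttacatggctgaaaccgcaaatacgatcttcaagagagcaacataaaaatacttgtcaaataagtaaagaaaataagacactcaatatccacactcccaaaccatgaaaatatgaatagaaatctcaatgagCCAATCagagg
PORB: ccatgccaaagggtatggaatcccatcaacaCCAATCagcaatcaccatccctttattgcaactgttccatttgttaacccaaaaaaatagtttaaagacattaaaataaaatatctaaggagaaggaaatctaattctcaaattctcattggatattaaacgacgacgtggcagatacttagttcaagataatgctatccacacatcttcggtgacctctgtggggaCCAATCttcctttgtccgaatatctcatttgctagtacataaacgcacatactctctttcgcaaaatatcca
The G-box was in 8 of the 39 windows (20.5%), compared with 6.91% of 20312 windows and 8.84% of 10639 windows of the same length. The 20312 are those of the genes in the deposited table that could be placed in TAIR10.1, and the 10639 are those of the genes tested among them. CCAATC was in 6 (15.4%, against 12.0% and 12.8%), the I-box in 7 (17.9%, against 14.7% and 14.9%) and the PHR1 site in 2 (5.13%, against 6.11% and 6.05%). Among the 19 genes that fell, 4 held the G-box, 4 held CCAATC, 5 held the I-box and 1 held the PHR1 site. These are 21.1%, 21.1%, 26.3% and 5.26%, compared with 11.1%, 13.6%, 20.9% and 6.72% of the windows of all genes that fell. The G-box was found in HEMD, CRD1, CAO, FC2, HY2, NYC1, NOL and SGR2, of which SGR2 rose and CRD1, CAO and HY2 did not pass. No matches of different motifs overlapped in these windows. A match is a description of the letters in the window and says nothing of what binds there.

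ALA synthesis, the entry to the pathway, changed most in its reductase. HEMA1 (AT1G58290), the main glutamyl-tRNA reductase gene of green tissue, was at 1738, 1695 and 1388 CPM in WT 1 to 3 and at 362, 335 and 371 CPM in phod1 1 to 3. All phod1 libraries lay close together and far below every WT library. HEMA1 fell by 2.17 on the log2 scale (SE 0.111, adjusted p = 2.2e-04), from 1607 ± 191 to 356 ± 18.8 CPM. Its paralog HEMA2 (AT1G09940) was at 43.5 to 48.2 CPM in WT and at 27.1, 23.0 and 8.71 CPM in phod1, and did not pass (log2 -1.22, SE 0.410, adjusted p = 0.0785). Without the low library, phod1 3, the value was -0.87 and passed (adjusted p = 0.0150).

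The next enzyme, glutamate-1-semialdehyde aminotransferase, is encoded by GSA1 (AT5G63570) and GSA2 (AT3G48730), and neither gene passed. GSA1 stood at 241, 82.3 and 153 CPM in WT and at 337, 340.3 and 361 CPM in phod1 (log2 1.12, SE 0.374, adjusted p = 0.0768). GSA2 stood at 593, 428 and 425 CPM in WT and at 338, 334 and 355 CPM in phod1 (log2 -0.49, SE 0.147, adjusted p = 0.0563). Both genes were apart between genotypes on the TMM scale, in opposite directions, and the WT libraries were the ones that varied. On library totals the genotypes overlapped for GSA2. Per length, GSA1 supplied 22.1% ± 6.41 of the GSA transcript in WT and 47.8% ± 0.245 in phod1 (SD, n = 3 each). In all, ALA synthesis had 1 gene lower (25.0%, against 13.0% of all genes tested) and 3 that did not pass, with a median log2 fold change of -0.86. Its summed level was 2293 ± 306 CPM in the WT and 1064 ± 31.7 CPM in phod1.

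From ALA to protoporphyrin IX, 5 of 7 genes fell (71.4%, against 13.0% of all genes tested) and 2 did not pass. On the TMM scale all 7 had negative values and the genotypes were apart for each of them, as they were for 47.6% of all genes tested. On library totals only HEMC kept the genotypes apart, and the other genes of this stretch overlapped. HEMC (AT5G08280), porphobilinogen deaminase, was at 647, 694 and 715 CPM in WT and at 297, 286 and 264 CPM in phod1. It fell by 1.28 on the log2 scale (SE 0.0790, adjusted p = 3.5e-04), a 2.43-fold change and the largest of these 7 genes. The other falls were by less than 1 on the log2 scale. HEMB1 (AT1G69740), ALA dehydratase, was at 147, 154 and 197 CPM in WT and at 112, 110.4 and 106 CPM in phod1, and fell by 0.60 (SE 0.127, adjusted p = 0.0194). HEMD (AT2G26540), uroporphyrinogen III synthase, was at 42.4, 49.7 and 52.1 CPM in WT and at 35.0, 34.6 and 34.9 CPM in phod1, and fell by 0.47 (SE 0.106, adjusted p = 0.0239). For both genes the phod1 libraries were nearly equal, and the margin to the lowest WT library was small. HEMB1 no longer passed once any phod1 library was left out (adjusted p of 0.0598 to 0.0647), nor did HEMD without any library but WT 1 (adjusted p of 0.0596 to 0.0751).

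Decarboxylation and oxidation of the ring follow. HEME2 (AT2G40490), a uroporphyrinogen decarboxylase gene, was at 417, 399.6 and 408 CPM in WT and at 305, 292 and 322 CPM in phod1 (log2 -0.41, SE 0.0673, adjusted p = 0.00803). HEMF1 (AT1G03475), coproporphyrinogen oxidase, was at 302, 299 and 293 CPM in WT and at 216, 229.8 and 239 CPM in phod1 (log2 -0.39, SE 0.0689, adjusted p = 0.0108). Both falls were small and steady over the libraries on the TMM scale. Neither was called on library totals (log2 -0.036 for HEME2 and -0.0073 for HEMF1) or with the replicate block (adjusted p = 0.0546 and 0.0711). HEME1 (277 to 404 CPM in WT, 216 to 269 CPM in phod1, log2 -0.43, adjusted p = 0.108) and the protoporphyrinogen oxidase gene PPOX1 (195 to 229.9 and 156 to 181 CPM, log2 -0.30, adjusted p = 0.0785) did not pass, and PPOX1 had a positive value with library totals (0.083). The 7 genes summed to 2152 ± 34.7 CPM in the WT and to 1381 ± 34.3 CPM in phod1.

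In the chlorophyll branch, 7 of 12 genes fell (58.3%, against 13.0% of all genes tested), none rose (against 14.6%) and 5 did not pass. All 12 values were negative with a median of -0.63, where the median over all genes tested was 0.014. On library totals PORA, PORB and DVR alone were called lower, and CHLG had a positive value (0.26). The branch summed to 16872 ± 2022 CPM in the WT and to 8810 ± 864 CPM in phod1, most of the level of the whole set. It opens with magnesium chelatase, whose subunits are encoded by CHLH, CHLI1, CHLI2 and CHLD. CHLH (AT5G13630), the large subunit that binds the porphyrin, was at 4250, 7588 and 8201 CPM in WT and at 1598, 2983 and 2955 CPM in phod1. The genotypes did not overlap, although WT 1 and phod1 1 were each well below their sister libraries. CHLH fell by 1.41 on the log2 scale (SE 0.348, adjusted p = 0.0314), and the call was lost without any one library other than WT 1 (adjusted p from 0.0639 to 0.0875). CHLI1 (AT4G18480), an ATPase subunit, was at 1220, 1322 and 1163 CPM in WT and at 872, 837 and 908 CPM in phod1 (log2 -0.50, SE 0.0759, adjusted p = 0.00629). CHLI2 (AT5G45930), its paralog, was at 229.6, 201 and 218 CPM in WT and at 151, 146 and 151 CPM in phod1 (log2 -0.53, SE 0.0778, adjusted p = 0.00562). Both CHLI genes fell by nearly the same amount on the TMM scale. On library totals neither CHLI1 (log2 -0.12, adjusted p = 0.167) nor CHLI2 (log2 -0.15, adjusted p = 0.208) was called. With the replicate block CHLI1 was not called either (adjusted p = 0.0543). CHLD (AT1G08520), the remaining ATPase subunit, was at 149 to 234 CPM in the WT and 133 to 169 CPM in phod1 and did not pass (log2 -0.44, adjusted p = 0.164).

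The next steps add a methyl group and close the fifth ring. The methyltransferase gene CHLM (AT4G25080) was at 878, 906 and 216 CPM in WT and at 496, 127 and 134 CPM in phod1. In each genotype 1 library stood apart, and the fitted value of -1.40 had an SE of 0.772 (adjusted p = 0.242). The cyclase gene CRD1 (AT3G56940) was at 2414 to 3233 CPM in the WT and 1809 to 2457 CPM in phod1 and did not pass (log2 -0.50, adjusted p = 0.0796). Without phod1 3, its highest phod1 library, the value was -0.65 (adjusted p = 0.0404).

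Protochlorophyllide oxidoreductase, the light-dependent step of greening, showed the largest fall of the set. PORA (AT5G54190), known as the form that accumulates in dark-grown seedlings, was at 16.3, 13.2 and 17.3 CPM in WT and at 0.940, 0.876 and 1.20 CPM in phod1. It fell by 3.95 on the log2 scale (SE 0.204, adjusted p = 2.2e-04), from 15.6 ± 2.16 to 1.01 ± 0.173 CPM. The phod1 libraries held 36, 34 and 45 units of it, above the floor of 12, so the transcript was still detected. PORB (AT4G27440), a form expressed in green tissue, was at 3715, 3614 and 3405 CPM in WT and at 1872, 1832 and 1947 CPM in phod1, and fell by 0.93 (SE 0.0663, adjusted p = 5.4e-04). PORC (AT1G03630), the form of light-grown tissue, was at 543, 525 and 543 CPM in WT and at 411, 398 and 415 CPM in phod1, and fell by 0.40 (SE 0.0589, adjusted p = 0.00588). All POR genes were lower in phod1 and their falls differed in size. Per length, PORB was 87.5% ± 0.607 of POR transcript in WT and 83.4% ± 0.202 in phod1, PORC was 12.1% ± 0.553 and 16.6% ± 0.208, and PORA was 0.378% ± 0.0601 and 0.0439% ± 0.00625 (SD, n = 3 each). The windows printed for PORA and PORB share none of the motif types searched.

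Of the last steps, only the divinyl reductase gene passed. DVR (AT5G18660) was at 409, 434 and 432 CPM in WT and at 259, 251 and 263 CPM in phod1, and fell by 0.72 on the log2 scale (SE 0.0637, adjusted p = 0.00103). The chlorophyll synthase gene CHLG (AT3G51820) was at 104 to 111 CPM in the WT and 96.4 to 100.4 CPM in phod1 (log2 -0.12, adjusted p = 0.259), with a positive value on library totals (0.26). CAO (AT1G44446), the oxygenase that makes chlorophyll b, was at 74.9, 428 and 496 CPM in WT and at 175, 185 and 199 CPM in phod1 (log2 -0.84, SE 0.644, adjusted p = 0.401). WT 1 was below all phod1 libraries and the other WT libraries were above them, and without WT 1 the value was -1.31 (adjusted p = 0.00286).

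In the heme and bilin branch 1 of 4 genes fell (25.0%, against 13.0% of all genes tested) and 3 did not pass. The branch summed to 305 to 349 CPM in the WT, to 278 CPM in phod1 3 and to 157 CPM in the lowest phod1 library. As a share of all units phod1 3 (0.0307%) lay above the WT libraries (0.0277% to 0.0299%), so the genotypes overlapped on that scale. FC2 (AT2G30390), the ferrochelatase known to serve photosynthetic tissue, was at 105, 112 and 109 CPM in WT and at 66.5, 66.6 and 73.3 CPM in phod1, and fell by 0.66 on the log2 scale (SE 0.0795, adjusted p = 0.00299). FC1 (AT5G26030), the form expressed in all tissues, was at 29.1, 24.7 and 26.3 CPM in WT and at 27.2, 24.1 and 36.0 CPM in phod1 (log2 0.12, SE 0.174, adjusted p = 0.663). The libraries of FC1 overlapped, and its share of ferrochelatase transcript per length was 19.5% ± 1.79 in WT and 29.1% ± 3.19 in phod1. HY1 (AT2G26670), the heme oxygenase gene, was at 189, 212 and 159 CPM in WT and at 44.0, 53.9 and 151 CPM in phod1 (log2 -1.17, SE 0.492, adjusted p = 0.139). HY2 (AT3G09150), phytochromobilin synthase, was at 8.01, 0.918 and 11.6 CPM in WT and at 19.4, 19.6 and 18.4 CPM in phod1 (log2 1.49, SE 0.802, adjusted p = 0.232). In each of these bilin genes a single library stood apart. HY1 passed as lower without phod1 3 (log2 -1.93, adjusted p = 0.00456), and HY2 passed as higher without WT 2 (log2 0.97, adjusted p = 0.0303).

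Of the 3 regulators, 2 fell (66.7%, against 13.0% of all genes tested). GUN4 (AT3G59400), which binds protoporphyrins and stimulates magnesium chelatase, was at 711, 770.4 and 781 CPM in WT and at 396, 402 and 437 CPM in phod1, and fell by 0.87 on the log2 scale (SE 0.0755, adjusted p = 9.7e-04). GUN1 (AT2G31400), a plastid pentatricopeptide repeat protein of signalling to the nucleus, was at 841, 889 and 832 CPM in WT and at 603, 646 and 575 CPM in phod1, and fell by 0.49 (SE 0.0725, adjusted p = 0.00585). On library totals GUN1 was not called (log2 -0.11, adjusted p = 0.349), while GUN4 was (log2 -0.49, adjusted p = 0.00494). FLU (AT3G14110), which restrains glutamyl-tRNA reductase in the dark, was at 161, 179 and 135 CPM in WT and at 166, 145 and 161 CPM in phod1. The FLU libraries overlapped (log2 -0.01, SE 0.127, adjusted p = 0.961), and on library totals FLU was called higher (log2 0.37, adjusted p = 0.0428).

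Chlorophyll breakdown was mixed, with 3 of 9 genes called lower, 2 called higher, 4 not called and a median of -0.08. The shares were 33.3% lower and 22.2% higher, against 13.0% and 14.6% of all genes tested. NYC1 (AT4G13250), a chlorophyll b reductase gene that opens the breakdown of chlorophyll b, was at 165, 190.1 and 179 CPM in WT and at 49.1, 47.8 and 43.2 CPM in phod1. It fell by 1.93 on the log2 scale (SE 0.0961, adjusted p = 2.2e-04), a 3.81-fold change, with no overlap and little spread in either genotype. Its paralog NOL (AT5G04900) was at 27.0, 23.9 and 26.1 CPM in WT and at 18.3, 20.0 and 18.1 CPM in phod1, and fell by 0.45 (SE 0.0984, adjusted p = 0.0213). NOL no longer passed when WT 1, WT 3, phod1 1 or phod1 3 was left out (adjusted p of 0.0573 to 0.0771). RCCR (AT4G37000), red chlorophyll catabolite reductase, was at 182, 173 and 191 CPM in WT and at 128, 122 and 125 CPM in phod1, and fell by 0.54 (SE 0.0726, adjusted p = 0.00414). On library totals neither NOL (adjusted p = 0.671) nor RCCR (adjusted p = 0.186) was called.

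The genes that rose were CLH1 and SGR2. CLH1 (AT1G19670), a chlorophyllase gene, was at 143, 128 and 140.4 CPM in WT and at 248, 202 and 233 CPM in phod1. Every phod1 library was above every WT library, and CLH1 rose 1.66-fold (log2 0.73, SE 0.103, adjusted p = 0.00494). SGR2 (AT4G11910), of the STAY-GREEN family, was at 0.741, 0.491 and 0.322 CPM in WT and at 1.78, 2.11 and 2.14 CPM in phod1 (log2 1.95, SE 0.361, adjusted p = 0.0121). Its WT libraries held only 22, 23 and 10 units, and WT 3 lay under the floor of 12, so the size of the rise is poorly fixed at this depth. Its paralog SGR1 (AT4G22920), the magnesium dechelatase gene of leaf senescence, was at 25.8, 16.7 and 25.5 CPM in WT and at 27.1, 26.2 and 27.4 CPM in phod1 (log2 0.25, SE 0.185, adjusted p = 0.387). PAO (AT3G44880), the oxygenase that opens the ring, was at 116, 116 and 139.5 CPM in WT and at 97.5, 100.1 and 88.2 CPM in phod1, with no overlap and an adjusted p of 0.0502 (log2 -0.38, SE 0.109). The pheophytinase gene PPH (AT5G13800) was at 102, 104 and 31.5 CPM in WT and at 50.2, 106 and 109 CPM in phod1, with 1 low library in each genotype (adjusted p = 0.866). HCAR (AT1G04620), the reductase that follows NYC1, was between 1.85 and 3.63 CPM in all libraries (log2 -0.08, or 0.29 on library totals, adjusted p = 0.868). The breakdown genes summed to 752 ± 14.4 CPM in the WT and 634 ± 13.6 CPM in phod1, but as a share of all units they took 0.0647% to 0.0668% in WT and 0.0716% to 0.0735% in phod1, so the direction of this sum flipped with the scaling.

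**Figure D3:**
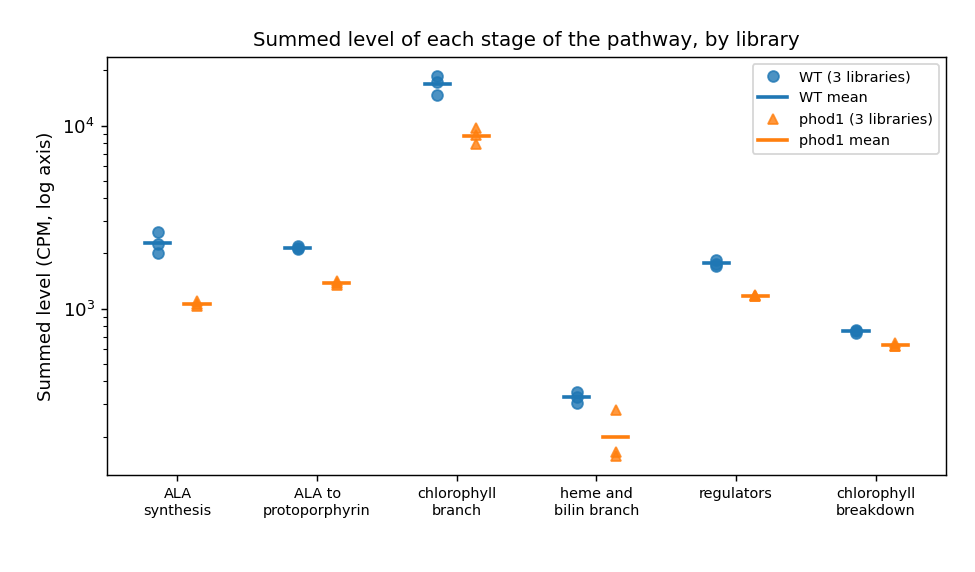
Summed level of the genes of each stage in every library, in TMM-scaled CPM on a log axis, with the mean of each genotype as a line. The genotypes are apart at every stage on this scale, from 16872 CPM in WT and 8810 CPM in phod1 for the chlorophyll branch to 752 and 634 CPM for breakdown, whose direction flips on library totals. In the heme and bilin branch phod1 3 stands above the other phod1 libraries, and on library totals it lies above all WT libraries.

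Per length, the most abundant transcripts of the set in WT were PORB with 2181 CPM per kb, CRD1 with 1927, CHLH with 1404 and CHLI1 with 768, followed by HEMA1 with 695 and GUN4 with 582. In phod1 the levels were 1148 for PORB, 1367 for CRD1, 528 for CHLH, 543 for CHLI1, 154 for HEMA1 and 318 for GUN4 CPM per kb. HEMA1 therefore stood above GUN4 in WT and below it in phod1, and PORB stood above CRD1 in WT and below it in phod1. SGR2 (0.396 CPM per kb in WT, 1.53 in phod1) and HCAR (1.26 and 1.19) were the least abundant of the 39 in WT. Exon lengths came from TAIR10.1 and the annotation behind the counts may differ.

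The ratio of paralogs within a library does not depend on the scaling between libraries, and 8 pairs were compared by an exact two-sided permutation test with Benjamini-Hochberg adjustment over the pairs. With 3 against 3 libraries p cannot go below 0.1, so no pair could pass. In 5 pairs the ratios did not overlap between genotypes (p = 0.1, adjusted p = 0.16, exact test). NYC1 exceeded NOL by 6.10, 7.96 and 6.86 times in WT and by 2.68, 2.39 and 2.38 times in phod1, a log2 difference of -1.48. PORB exceeded PORC by 6.84, 6.89 and 6.27 times in WT and by 4.56, 4.60 and 4.70 times in phod1, a log2 difference of -0.53. In both pairs the more abundant gene lost ground to its paralog. The ratio of GSA1 to GSA2 was 0.406, 0.192 and 0.361 in WT and 0.999, 1.02 and 1.01 in phod1, a log2 difference of 1.73. FC1 to FC2 differed by 0.76 and SGR1 to SGR2 by -1.76, the latter resting on the few units of SGR2. The ratios overlapped for HEMA1 to HEMA2 (log2 difference -0.79, exact p = 0.4), HEME1 to HEME2 (-0.01, exact p = 1) and CHLI1 to CHLI2 (0.03, exact p = 1). None of these pairs, nor PORA with PORB or PORC, shared an exact stretch of 50 bases in TAIR10.1 transcripts.

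**Figure D4:**
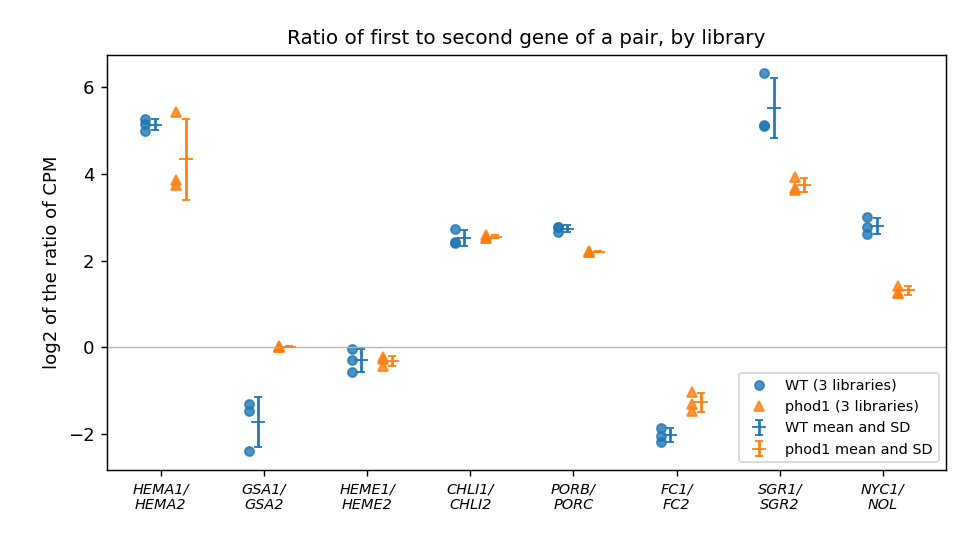
Log2 of the ratio of CPM of the first to the second gene of each pair in every library, with the mean and SD of each genotype (n = 3). The genotypes do not overlap for GSA1/GSA2, PORB/PORC, FC1/FC2, SGR1/SGR2 and NYC1/NOL, and in HEMA1/HEMA2 the phod1 3 library lies above all WT libraries.

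In TAIR10.1, 13 of the 39 genes are overlapped by an annotated model on the opposite strand, among them the called genes HEMC, CHLI1, CHLI2, PORB, PORC and GUN4. With the strand setting not given in the sources used here, reads of such partners cannot be told apart from those of the gene. A model on the same strand overlaps HEME1, CHLD, FC1, PAO and RCCR, of which RCCR was called, and there strand would not separate the reads. In all, 17 of the 39 genes are overlapped by a model on either strand. In 8 genes (CAO, CHLM, GSA1, HEMA2, HY1, HY2, PPH and SGR2) the highest and lowest library of a genotype differed at least 2-fold, and without these 19 of 31 genes fell and 1 rose. Of these 8 only SGR2 was called, so leaving them out could not change the number of falls. The shares over all genes with the same rule were not computed. HEMA1, HEMC, PORA, PORB, DVR, FC2, GUN4 and NYC1, as well as CLH1 among the rises, passed in the same direction under all 12 alternative settings. All of these settings refit the same libraries, 6 of them with 1 library left out. The share of all genes tested that passed in every setting was not computed. The authors' deposited table of 3902 genes lists 27 of the 39, with 24 lower and 3 higher, and holds all 21 genes called here. The 6 further genes there are HEMA2, GSA1, GSA2, PPOX1, CRD1 and PAO. The deposited log2 fold changes of HEMA1 (-2.18) and PORA (-3.96) matched those of the DESeq2 run here, so that table is not independent support. DESeq2 here called 24 of the 39 lower and 3 higher, where 15.3% and 16.0% of all genes were.

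Of a wider list of 26 other tetrapyrrole genes 18 were tested, 3 in the table (HEMB2, HO4 and TSPO) did not pass the filter on low counts, and 5 were absent from the deposited counts. Of those tested 4 (22.2%) fell and none rose by edgeR, with 2 higher at an unadjusted p under 0.05 and 1 higher by DESeq2, and the median was -0.26. Over all genes tested the shares were 13.0% lower and 14.6% higher by edgeR, 20.4% higher at an unadjusted p under 0.05 and 16.0% higher by DESeq2. CHLP (AT1G74470), the geranylgeranyl reductase gene that makes the phytol tail, was at 5276, 4933 and 5188 CPM in WT and at 2435, 2398 and 2518 CPM in phod1, and fell by 1.07 on the log2 scale (SE 0.0628, adjusted p = 3.1e-04). The margin was wide in every library, as for PORB. MES16 (AT4G16690), a methyl esterase gene acting on breakdown products, was at 14.9, 8.28 and 12.8 CPM in WT and at 4.99, 4.84 and 4.44 CPM in phod1 (log2 -1.33, SE 0.239, adjusted p = 0.0110). TIC55 (AT2G24820), also of chlorophyll breakdown, was at 305, 319 and 277 CPM in WT and at 219, 219.7 and 228 CPM in phod1 (log2 -0.43, SE 0.0782, adjusted p = 0.0112). SGRL (AT1G44000), named STAY-GREEN-like by its symbol, was at 197, 209 and 136 CPM in WT and at 67.1, 103 and 65.2 CPM in phod1 (log2 -1.20, SE 0.250, adjusted p = 0.0178), and did not pass when WT 1, WT 2, phod1 1 or phod1 3 was left out (adjusted p of 0.0584 to 0.0630).

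Of 24 transcription factor genes known to act on these pathways, 23 were tested, of which 4 (17.4%) fell, close to the 13.0% of all genes tested, and none rose. By DESeq2 6 fell and none rose, where 15.3% and 16.0% of all genes did, and 0 were higher at an unadjusted p under 0.05, where 20.4% of all genes were. RVE1 (AT5G17300), a clock-related MYB factor known to promote PORA expression in seedlings, was at 25.8, 29.9 and 30.8 CPM in WT and at 4.52, 7.13 and 4.52 CPM in phod1, and fell by 2.42 on the log2 scale (SE 0.224, adjusted p = 0.00118). SOC1 (AT2G45660), a MADS-box factor of flowering, was at 42.8, 52.4 and 49.2 CPM in WT and at 16.5, 13.6 and 20.1 CPM in phod1, and fell by 1.52 (SE 0.176, adjusted p = 0.00261). PIF1 (AT2G20180), a phytochrome-interacting bHLH factor that controls greening, was at 50.6, 58.8 and 56.9 CPM in WT and at 38.8, 33.8 and 27.8 CPM in phod1, and fell by 0.73 (SE 0.149, adjusted p = 0.0168). It did not pass when WT 2, WT 3 or phod1 2 was left out (adjusted p of 0.0528 to 0.0594). The clock gene TOC1 (AT5G61380) was at 72.0, 77.7 and 65.6 CPM in WT and at 53.0, 58.8 and 49.0 CPM in phod1, and fell by 0.42 (SE 0.112, adjusted p = 0.0390). It did not pass when WT 1, WT 2, phod1 1 or phod1 3 was left out (adjusted p of 0.103 to 0.117), with no filter (adjusted p = 0.0541) or on library totals, where PIF1 (log2 -0.35, adjusted p = 0.149) and TOC1 (log2 -0.037, adjusted p = 0.831) were both not called. GLK1 and GLK2, the Golden2-like activators of chlorophyll genes, were named after their values were seen. GLK1 was at 366, 363 and 267 CPM in WT and at 370.1, 384 and 301 CPM in phod1 (log2 0.08, adjusted p = 0.755), and GLK2 at 184, 189 and 173 CPM in WT and at 230.5, 122 and 199 CPM in phod1 (log2 0.01, adjusted p = 0.977). Both overlapped between genotypes, and MYC2 was listed at 0 in all libraries.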

How the data were processed

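The 3 WT and 3 phod1 shoot libraries of RNA-seq form 2 groups, by the labels' genotype. The authors deposited estimated counts (expected counts) per gene, whole numbers with no normalization. CASAVA 1.4, STAR and StringTie and the build TAIR10 appear in the submitters' processing notes, with no role or order. For the counting command, annotation and strand setting, nothing is stated. The value 4 was seen 1703 times against 562 for 3 and 832 for 5, so 1 fragment was taken as 4 units and the floor as 3 fragments (12 units) per library. This scale is read from the values. The plan allowed for estimated counts, and rounding to whole numbers changed none. Per the file headers, the authors' deposited comparison gives a log2 fold change and an adjusted p-value per gene.

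Genes were filtered with filterByExpr (minimum count 10, minimum total 15), which left 10803 of 21693. After TMM scaling, a two-sided quasi-likelihood test (edgeR 4.0.16, R 4.3.3, glmQLFit, glmQLFTest) was run with genotype as its single term. P-values were adjusted by Benjamini-Hochberg over those genes, and 0.05 was the threshold. The depth of 33183463 to 54720319 units puts the floor at 0.256 to 0.404 CPM. Errors of levels are SDs of 3 libraries. SEs of log2 fold changes are the fold change over the root of the F statistic. Alternatives were DESeq2 1.42.0, RLE factors, library totals, no filter, values divided by 4, a replicate block and each library left out. Leaving out genes with 2-fold replicate spread was chosen after seeing the data. Of the 21693 loci, 20318 are in the reference annotation TAIR10.1, the source of exon lengths, windows and strands.

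Values are given for each library for every called gene and for HEMA1, CHLH, GUN4, GUN1, FLU, FC1, FC2, SGR1 and PAO, others by range, except that genes with a library that stood apart are also given in full. Of the wider and regulator lists, called genes with the smallest p, up to 4 in each direction, are named. The 39 genes and the lists were chosen with earlier results of these data known.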

Additional observations from a re-analysis of the deposited data

How the results depend on the processing

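Over all genes, library totals gave 3544 higher and 618 lower, and a fit with the replicate number as a block gave 788 higher and 712 lower. Of the 39 genes, library totals gave 4 higher and 8 lower, the block 1 higher and 12 lower, with SGR2 among the calls lost (adjusted p = 0.0661), and leaving out genes with 2-fold replicate spread 1 higher. Leaving out single libraries gave 15 to 20 lower and 2 to 3 higher of the 39. Counts higher in the wider list (0 by edgeR) were 1 with DESeq2, 3 with library totals, 1 with values divided by 4 and 0 to 1 with a library left out. Regulator genes called were 4 higher and 2 lower with library totals, 2 lower with the block and 2 to 5 lower with a library left out. Values that changed sign with library totals were PPOX1 (0.083), CHLG (0.26), FLU (0.37) and HCAR (0.29), and GLK2 did so with the block (-0.035). With a library left out, values crossed 0 for FC1 (-0.059 to 0.24), FLU (-0.12 to 0.093), HCAR (-0.38 to 0.12), PPH (-0.22 to 0.44), GLK1 (-0.048 to 0.18) and GLK2 (-0.18 to 0.24). Apart from the scaling, whose effect follows from the shift of all genes, the cause was not tested.

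The labels give both genotypes the same replicate numbers, but same-numbered libraries did not deviate together (correlations of -0.0059, -0.051 and 0.0074 for numbers 1 to 3), and no library correlated best with its own number. The numbers were therefore not treated as pairs. These correlations over all genes show no pairing but cannot exclude one. Depth limits SGR2, whose WT libraries lie near the floor, and PORA in phod1. With 3 libraries a genotype, leaving out 1 particular library made HEMA2, GSA1, GSA2, CHLD, CRD1, CAO, HY1 and HY2 each pass. For GSA1 and GSA2 this was WT 1 (adjusted p = 0.0235 and 0.0344), and for CHLD it was WT 3 (adjusted p = 0.0325).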
